A study of Homo sapiens with 6 samples.

Results

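The 10 genes described here, BCL2, BCL2L1, BCL2L2, MCL1, BAK1, BID, BIK, BAD, BCL2L11 and BIRC5, are members of the BCL2 family together with BIRC5, a member of the inhibitor of apoptosis (IAP) family. They were chosen by gene symbol from the 17047 genes in the deposited expression table, and all 10 were among the 12959 genes that passed the filter on low counts. Polyadenylated RNA was sequenced as single-end reads of 50 nt from HCT116, an established human colorectal carcinoma cell line. The comparison asks which transcripts differ when PLEK2, a membrane-associated and cytoskeletal protein, is silenced. The shNC group was 3 libraries of HCT116 cells carrying a non-targeting shRNA, and the PLEK2 shRNA group was 3 libraries of HCT116 cells carrying an shRNA against PLEK2, delivered in the pLKO.1 lentiviral vector without any drug treatment named in the labels. Only 1 PLEK2 shRNA sequence is listed for the study, so an effect of the target and an effect of that particular shRNA cannot be told apart.

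The BCL2 family controls whether the outer mitochondrial membrane is breached during apoptosis. Anti-apoptotic members (BCL2, BCL2L1, BCL2L2 and MCL1) hold the pore-forming effectors BAX and BAK1 in check, and BH3-only members (BID, BIK, BAD and BCL2L11) bind them and release that restraint. BIRC5, known as survivin, acts outside the mitochondria and is also a subunit of the chromosomal passenger complex, which works in mitosis. Much of this system is regulated by protein binding, phosphorylation and degradation, which mRNA levels do not show.

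The clearest difference among the 10 genes was in BCL2L11, which encodes the BH3-only protein BIM. Its mRNA was about 21% higher with PLEK2 shRNA (20.8%, log2 fold change 0.27), its levels in the groups did not overlap, and its adjusted p was 0.0463 when libraries with the same number were paired and 0.968 when they were not. A gene passed the test where this p, adjusted over all genes tested, was under 0.05, and pairing means that the replicate number entered the fit as a block. BCL2L1, which encodes BCL-XL, was the member with the lowest log2 fold change (-0.30), and most of that difference came from 1 pair of libraries. In counts scaled to library size, BCL2L2 and MCL1 were slightly higher and BAD and BIRC5 slightly lower in every pair. None of these passed the test, and 19.9% of all genes were higher and 21.1% lower in every pair. BCL2, BAK1, BID and BIK showed no common direction.

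The PLEK2 shRNA target is shown because its seed is the stretch by which an shRNA can also bind other mRNAs. It comes from the oligonucleotides listed for the study, 5′ to 3′ in the sense of the mRNA, with the bases that pair with positions 2 to 8 of the guide in capitals, if the guide is the exact complement of the target.
PLEK2 shRNA target: gctggtgtactacAAGCTTGa
The 7 bases AAGCTTG occurred in the canonical 3′ UTR of 0 of the 10 genes (GENCODE 44, GRCh38). Of 12442 tested genes with such a UTR, 1310 (10.5%) held them. This describes a match of letters only, not binding.

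The promoter of BCL2L11 is shown because this was the member that passed the test when pairs were taken into account. RefSeq places the 250 bases before its start at chr2:111120664-111120913 (GRCh38.p14, plus strand), a window that holds no GENCODE exon of the gene. This start (111120914) is that of 4 GENCODE transcripts, the canonical one among them, while the gene interval given below opens 1536 bases upstream, at the start of 1 other transcript, so the window lies inside that interval. Capitals mark the letters GTAAACA, which FOXO factors bind, and GCGGGGGCG, which EGR factors bind.
BCL2L11 promoter: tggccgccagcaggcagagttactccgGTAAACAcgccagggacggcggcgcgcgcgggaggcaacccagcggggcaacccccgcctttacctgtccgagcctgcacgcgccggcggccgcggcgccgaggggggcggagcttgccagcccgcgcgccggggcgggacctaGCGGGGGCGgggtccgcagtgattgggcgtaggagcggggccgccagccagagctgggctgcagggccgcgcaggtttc
Promoter windows of 300 bases matched 6 of the 10 genes in RefSeq, namely BCL2, BCL2L1, BCL2L11, BAK1, BAD and BID, and not MCL1, BIK, BCL2L2 or BIRC5. Both strands were searched. The 6 genes had 12 windows together, and a gene was counted where any of its windows held the letters. Percentages over all windows count single windows, so they are not on the same scale as the counts of genes. GTAAACA stood in 3.42% of all 35116 windows and, among the 6 genes, only in BCL2L11. GCGGGGGCG stood in 5.07% of all windows and likewise only in BCL2L11 among the 6, where its last bases overlap a GC box. The GC box itself (GGGCGG) was found in 5 of the 6 genes and in 45.0% of all windows. CCGGAAGT, an ETS site, and TATAAA, the TATA box, were found in BCL2L1 alone of the 6 and in 4.14% and 11.5% of all windows. TTTGAA, the CHR element of cell cycle genes, was in none of the 6 and in 15.2% of all windows. These matches are descriptions and say nothing of whether a factor was bound.

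Library totals lay between 14377532 and 15602732 estimated counts, so the depth of the 6 libraries was nearly equal. PLEK2 stood at 86.0, 72.6 and 82.9 CPM (read counts divided by library size after TMM correction) in shNC replicates 1 to 3 and at 16.02, 32.2 and 34.9 in PLEK2 shRNA replicates 1 to 3, lower in every pair as labelled (log2 fold change -1.57, edgeR with the replicate number as a block, adjusted p = 0.00106; -1.54 and 0.684 without it). Libraries with the same number deviated together from their group means, and replicate 1 of both groups stood apart from replicates 2 and 3, so ratios within pairs are given for the 10 genes, and values without replicate 1 for genes whose result rests on it. The labels do not say that replicates were separate cultures, so p-values measure only the spread between these samples, which may be technical. Summed epithelial markers (6 genes, among which KRT8 and KRT18 were the most abundant) lay between 7662 and 8786 CPM in shNC and between 6137 and 8017 CPM in PLEK2 shRNA libraries, and the sum was lower with PLEK2 shRNA in all 3 pairs, as were KRT8, KRT18, KRT19 and CDH1 (log2 fold change of CDH1 -0.33, of KRT19 -0.20, edgeR with the block, adjusted p = 0.0965 and 0.0843). Within pairs CDH1 was at -0.69, -0.21 and -0.09. EPCAM, also on that list, did not share this direction, with log2 ratios within pairs of 0.08, -0.03 and -0.05. Its log2 fold change was 2.4e-05 (edgeR with the block). Of all genes tested, 21.1% were lower in all 3 pairs. Without replicate 1 of both groups CDH1 was at -0.15 and KRT19 at -0.19 (edgeR with the block, adjusted p = 0.155 and 0.0229). VIL1, the epithelial marker that encodes villin, was at most 0.191 CPM in any library. Markers of blood, stromal and endothelial cells (10 of 12 in the table) summed to between 65.8 and 89.9 CPM in shNC and between 65.2 and 76.8 CPM in PLEK2 shRNA libraries, nearly all of it CD68 and COL1A1. CD3E had 1 count in shNC replicate 1 and 0 in every other library of both groups. The part of these markers in the results was not tested.

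Levels were compared between genes as FPKM, a count scaled to transcript length and library total, shown by gene in the plot of FPKM by library. In shNC cells BCL2L1 was the most abundant of the 10 at 84.1 ± 4.65 FPKM (SD, n = 3). BIRC5 followed at 62.3 ± 1.17 and MCL1 at 56.6 ± 4.61 FPKM. The ranges of BIRC5 and MCL1 over the 3 libraries overlapped, so their order is not beyond the spread. BAD stood at 35.02 ± 1.54, BAK1 at 29.3 ± 1.63 and BID at 22.8 ± 1.495 FPKM. BIK at 19.8 ± 3.09 overlapped both BID and BCL2L11, the latter at 18.2 ± 0.751 FPKM. BCL2L2 at 9.30 ± 0.583 FPKM and BCL2 at 0.723 ± 0.0808 FPKM closed the order. BCL2L1 thus lay at the 92.9th percentile and BCL2 at the 8.38th percentile of the FPKM of all tested genes. In PLEK2 shRNA cells the order differed in the overlapping neighbours only. MCL1 (63.3 ± 6.06 FPKM) stood above BIRC5 (58.1 ± 1.25 FPKM), and BCL2L11 (22.4 ± 0.945 FPKM) stood above BIK (20.5 ± 1.72 FPKM).

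**Figure D1:**
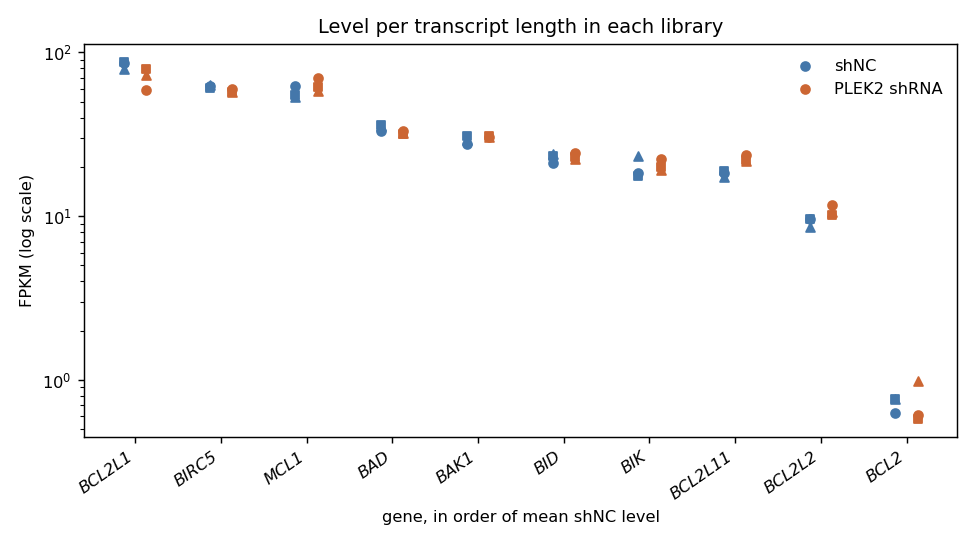
FPKM of each gene in each library on a log axis, with genes ordered by their mean in shNC; circles, squares and triangles are replicates 1, 2 and 3. BCL2L1 (84.1 FPKM in shNC) is at the top and BCL2 (0.723 FPKM) lies far below the other 9 genes.

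BCL2L11 (gene ID 10018, chr2:111119378-111168444, plus strand, GRCh38) encodes BIM, a BH3-only protein that binds all anti-apoptotic members and can activate the effectors directly. Its level was 88.7, 91.8 and 83.6 CPM in shNC replicates 1, 2 and 3. In PLEK2 shRNA replicates 1, 2 and 3 it was 110, 107 and 102 CPM. The lowest PLEK2 shRNA library was above the highest shNC library, and the 3 pairs gave log2 ratios of 0.32, 0.22 and 0.29. Compared without pairing, the log2 fold change was 0.27 ± 0.08 (SE), with an unadjusted p of 0.00790 and an adjusted p of 0.968 over all genes by edgeR's quasi-likelihood test. With the replicate number as a block, the log2 fold change was again 0.27 ± 0.06 (SE, 95% interval 0.15 to 0.39), with an adjusted p of 0.0463 by edgeR. BCL2L11 was 80th by p of the 110 genes that passed in that fit. Leaving out replicate 1 of both groups gave 0.26 (edgeR with the block, adjusted p = 0.0103), and leaving out replicate 3 gave 0.28 (edgeR with the block, adjusted p = 0.0354). Without replicate 2 the difference was 0.31 but did not pass (edgeR with the block, adjusted p = 0.258), nor did it in limma-trend on FPKM with the block (0.29, adjusted p = 0.110). In bulk RNA, a difference in the number of cells with a transcript and in its amount per cell cannot be told apart. Exons of BCL2L11 share 727 nt with those of MIR4435-2HG on the opposite strand, and since the use of strand in counting is not stated, reads of the pair may not be separated.

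**Figure D2:**
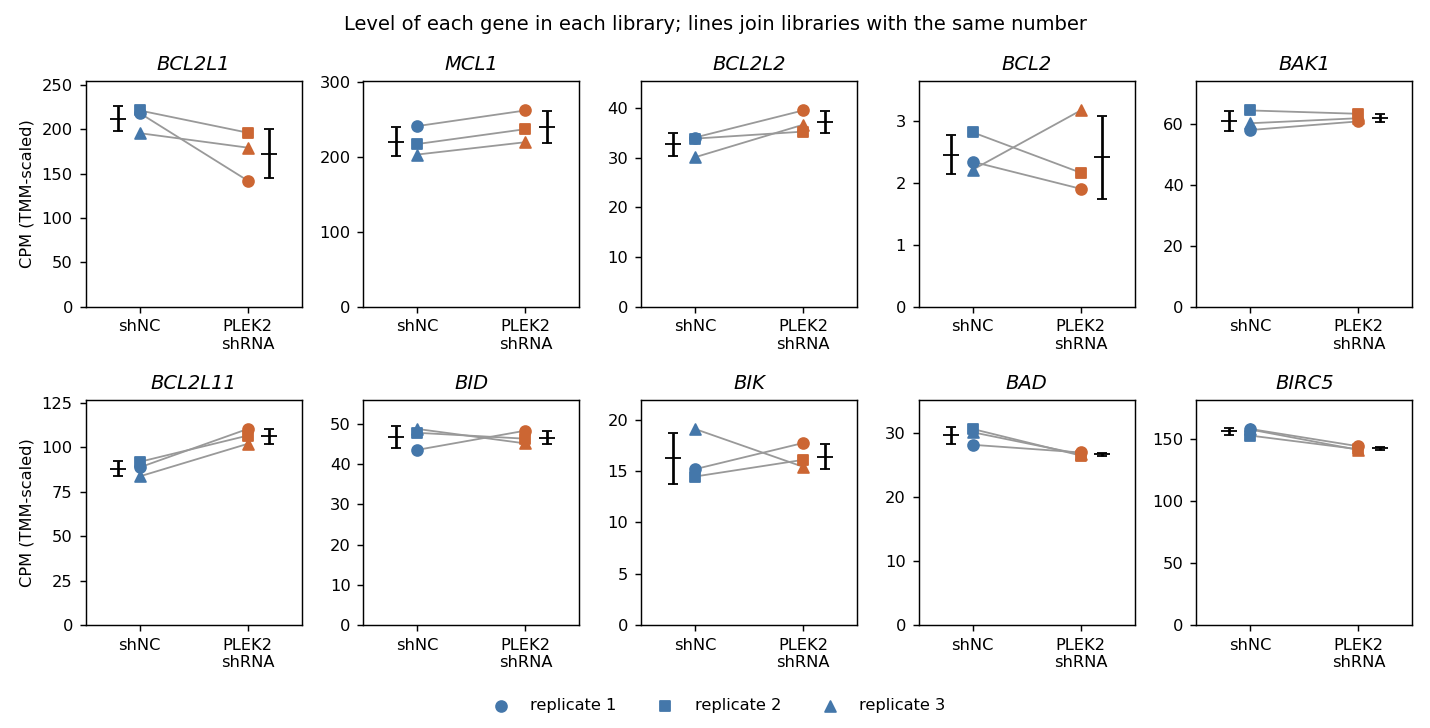
CPM of each of the 10 genes in each library on axes that start at 0; grey lines join libraries with the same number, and black bars are the group mean and SD (n = 3). BCL2L11 is higher with PLEK2 shRNA in all 3 pairs, and BCL2L1 is lowest in PLEK2 shRNA replicate 1 (142 CPM).

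The other BH3-only genes differed less. BAD (gene ID 572, chr11:64269830-64284704, minus strand) encodes a sensitizer that binds BCL-XL and BCL2 and is held inactive by phosphorylation. It stood at 28.2, 30.6 and 30.1 CPM in shNC replicates 1 to 3 and at 27.0, 26.5 and 26.7 CPM in PLEK2 shRNA replicates 1 to 3. In CPM all 3 PLEK2 shRNA libraries were below every shNC library, by 0.06, 0.21 and 0.18 on the log2 scale within pairs (ratios of -0.06, -0.21 and -0.18). In FPKM the groups overlapped, with PLEK2 shRNA replicate 1 (33.34) just above shNC replicate 1 (33.26). The log2 fold change of -0.15 ± 0.09 (SE) did not pass the test without the block (edgeR, adjusted p = 0.968) or with it (-0.15 ± 0.07, edgeR, adjusted p = 0.310). BAD shares 404 nt of exon with GPR137 on the opposite strand, which stood between 11.96 and 14.9 CPM.

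BID (gene ID 637, chr22:17734138-17774770, minus strand) links death receptors to mitochondria once caspase-8 has cut it. Its levels were 43.5, 47.8 and 48.7 CPM in shNC and 48.3, 46.3 and 45.1 CPM in PLEK2 shRNA replicates 1 to 3, so the groups overlapped almost fully. Its fitted log2 fold change was -0.003 without the block, with a 95% interval of -0.20 to 0.20, and its sign turned in most other settings. The log2 ratios of BID within pairs were 0.15, -0.04 and -0.11. BIK (gene ID 638, chr22:43110750-43129712, plus strand), a BH3-only protein of the endoplasmic reticulum, had 15.2, 14.5 and 19.1 CPM in shNC replicates and 17.7, 16.1 and 15.4 CPM in PLEK2 shRNA replicates 1 to 3. It was higher with PLEK2 shRNA in pairs 1 and 2 (0.22 and 0.15) and lower in pair 3 (-0.31), and the 95% interval of its log2 fold change was -0.30 to 0.33 without the block. BID and BIK both overlapped between groups, and the intervals leave room for changes of up to about those sizes.

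BCL2L1 (gene ID 598, chr20:31664452-31723989, minus strand) encodes BCL-XL, the anti-apoptotic member with the highest FPKM in these cells. Its level was 218, 221 and 195.6 CPM in shNC replicates 1, 2 and 3. With PLEK2 shRNA it was 142, 196.1 and 179 CPM. The library of PLEK2 shRNA replicate 1 stood well below the rest, while the highest PLEK2 shRNA value was just above the lowest shNC value. In FPKM the highest PLEK2 shRNA value (78.81) was just below the lowest shNC value (78.82). The log2 ratio was -0.62 in pair 1 and -0.17 and -0.13 in pairs 2 and 3. Without the block the log2 fold change was -0.30 ± 0.12 (SE, edgeR, unadjusted p = 0.0374, adjusted p = 0.968), and with the block it was -0.31 ± 0.08 (SE, 95% interval -0.48 to -0.13, edgeR, adjusted p = 0.0876). Without replicate 1 of both groups it was -0.14 (edgeR with the block, adjusted p = 0.111), and without replicate 3 it was -0.38 and passed (edgeR with the block, adjusted p = 0.00105). Replicate 1 was also the PLEK2 shRNA library with the lowest PLEK2 level (16.02 CPM) and the lowest summed epithelial markers (6137 CPM). In shNC, replicate 1 had the highest PLEK2 level (86.0 CPM) and the lowest summed epithelial markers (7662 CPM). Whether either bears on the level of BCL2L1 was not tested. Exons of BCL2L1 share 1735 nt with the antisense RNA ABALON, which has no row in the table.

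MCL1 (gene ID 4170, chr1:150560895-150579738, minus strand) encodes a short-lived anti-apoptotic protein that holds BAK1 and BIM. It stood at 241, 217 and 203 CPM in shNC replicates 1, 2 and 3 and at 262, 237 and 219 CPM in PLEK2 shRNA replicates 1, 2 and 3. The groups overlapped because libraries with different numbers differed more than the conditions did, but the ratio within pairs was nearly constant at 0.12, 0.13 and 0.11 on the log2 scale. The log2 fold change was 0.12 ± 0.10 (SE) without the block (edgeR, adjusted p = 0.968) and 0.12 ± 0.05 (SE, 95% interval 0.01 to 0.23) with it (edgeR, unadjusted p = 0.0332, adjusted p = 0.229), so it did not pass. With single libraries left out, the value without the block lay between 0.05 (without PLEK2 shRNA replicate 1) and 0.20 (without shNC replicate 1). Exons of MCL1 share 43 nt with ADAMTSL4 on the opposite strand (at most 4.92 CPM) and 328 nt with ADAMTSL4-AS1 on the same strand, which has no row in the table. The genes with the most similar pattern to MCL1 over the 6 libraries were RAD23B, LEO1 and ZNF561 (Pearson's r of log2 CPM 0.998, 0.997 and 0.996), and 255 of 10160 genes had an r over 0.95 with it.

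**Figure D3:**
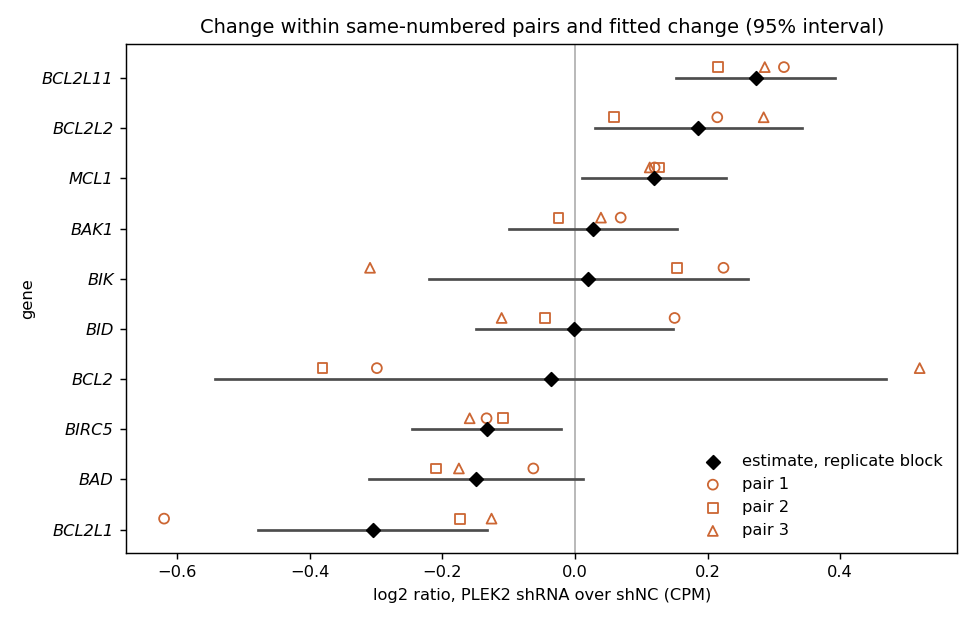
Log2 ratio of PLEK2 shRNA over shNC within each same-numbered pair (open symbols) and the edgeR estimate with the replicate block (diamonds, 95% interval as a line), with genes ordered by the estimate. The 3 pairs of MCL1 nearly coincide (0.12, 0.13 and 0.11), while those of BCL2 are spread from -0.38 to 0.52.

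BCL2L2 (gene ID 599, chr14:23298790-23311751, plus strand) encodes BCL-W, an anti-apoptotic member related to BCL-XL. Its level was 34.0, 33.8 and 30.05 CPM in shNC replicates and 39.5, 35.2 and 36.6 CPM in PLEK2 shRNA replicates 1 to 3. The groups did not overlap, and the log2 ratios within pairs were 0.21, 0.06 and 0.28. The log2 fold change of 0.19 ± 0.10 (SE) did not pass without the block (edgeR, adjusted p = 0.968) or with it (0.19 ± 0.07, edgeR, adjusted p = 0.197). BCL2L2 was also the only one of the 10 genes whose counts were not whole in any library (within 0.005 of a whole number), since 815 nt of its exons also belong to BCL2L2-PABPN1, a readthrough gene that joins it to its neighbour PABPN1 on the same strand. On the opposite strand it shares 149 nt with HOMEZ and 315 nt with PPP1R3E, which reached at most 18.1 and 3.12 CPM.

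The readthrough gene received 47.1, 119 and 58.8 counts in shNC replicates and 40.2, 51.3 and 19.5 counts in PLEK2 shRNA replicates 1 to 3. These were 8.27%, 19.9% and 11.9% of the counts of BCL2L2 and BCL2L2-PABPN1 together in shNC, and 6.09%, 8.73% and 3.40% with PLEK2 shRNA. The share given to the readthrough gene was thus lower with PLEK2 shRNA in each pair. Its own level in CPM was also lower in each pair (log2 ratios of -0.27, -1.33 and -1.70). Both the share and the level overlapped between groups. The log2 fold change of the level was -1.09 ± 0.24 with the block (SE, edgeR, adjusted p = 0.0514). Summed over both genes, the level was 37.1, 42.2 and 34.1 CPM in shNC and 42.0, 38.6 and 37.9 CPM in PLEK2 shRNA replicates 1 to 3, and the groups overlapped. The log2 fold change of the sum was 0.06 ± 0.11 (SE, edgeR, adjusted p = 0.968), with pairs at 0.18, -0.13 and 0.15. Counts of PABPN1 were not whole either (2110.1, 1817.46 and 2037.16 in shNC, 2322.06, 2087.92 and 2065.5 with PLEK2 shRNA). Counts of all 3 genes together were 2679, 2416 and 2530.01 in shNC and 2983, 2675.01 and 2638 with PLEK2 shRNA. These totals were whole or nearly so, so the sum of BCL2L2 and BCL2L2-PABPN1 leaves out part of the shared reads. Whether the readthrough transcript was lower with PLEK2 shRNA or reads were divided differently among the 3 genes cannot be told apart from these counts.

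**Figure D4:**
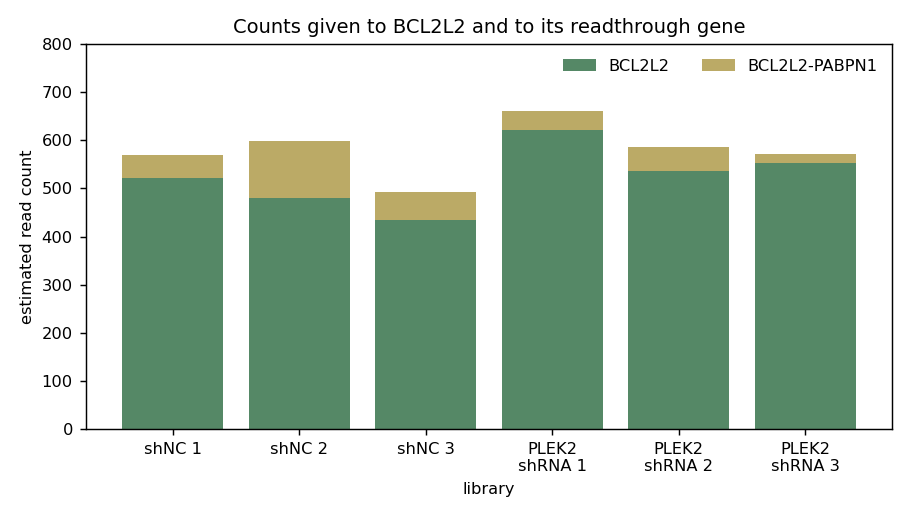
Estimated counts given to BCL2L2 (green) and to the readthrough gene BCL2L2-PABPN1 (ochre) in each library, stacked. The ochre part is largest in shNC replicate 2 (119 counts) and smallest in PLEK2 shRNA replicate 3 (19.5 counts).

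BCL2 (gene ID 596, chr18:63123346-63320128, minus strand), the founding anti-apoptotic member, was barely expressed. It had 36, 40 and 32 counts in shNC replicates and 30, 33 and 48 counts in PLEK2 shRNA replicates 1 to 3. These came to 2.35, 2.82 and 2.22 CPM in shNC and 1.91, 2.17 and 3.18 CPM with PLEK2 shRNA. The groups overlapped and the pairs did not share a direction (-0.30, -0.38 and 0.52). At this depth the 95% interval of the log2 fold change ran from -0.59 to 0.54 without the block, so a change smaller than about that could not be detected.

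BAK1 (gene ID 578, chr6:33572547-33580293, minus strand) encodes BAK, an effector that forms pores in the mitochondrial membrane. Its level was 57.9, 64.4 and 60.2 CPM in shNC replicates and 60.8, 63.3 and 61.8 CPM in PLEK2 shRNA replicates 1 to 3. All PLEK2 shRNA values lay within the shNC range, and the 95% interval of the log2 fold change was -0.16 to 0.21 without the block. The pairs gave log2 ratios of 0.07, -0.02 and 0.04.

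BIRC5 (gene ID 332, chr17:78214186-78225636, plus strand) encodes survivin, whose mRNA is highest in dividing cells. It stood at 159, 153 and 158 CPM in shNC replicates 1, 2 and 3. With PLEK2 shRNA it stood at 145, 142 and 142 CPM. Every PLEK2 shRNA library was below every shNC library, with log2 ratios within pairs of -0.13, -0.11 and -0.16. The log2 fold change of -0.13 ± 0.07 (SE) did not pass without the block (edgeR, adjusted p = 0.968), nor did -0.13 ± 0.05 (SE) with it (edgeR, unadjusted p = 0.0232, adjusted p = 0.197). Over the 6 libraries the patterns closest to BIRC5 were those of IDH3B, MOV10 and PRELID1 (Pearson's r of log2 CPM 0.977, 0.972 and 0.966), and 9 of 10160 genes had an r over 0.95.

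The calls among the 10 genes are given beside those among all genes. The 10 were chosen with earlier results of these data known, so the counts are descriptions and no set test was run. Without the block, 0 of the 10 genes had an adjusted p under 0.05 in edgeR, as did 0% of the 12959 genes tested. At an unadjusted p under 0.05 by edgeR, 2 of the 10 (BCL2L1 and BCL2L11) and 400 of all genes (3.09%) passed. With the block 5 of the 10 (BCL2L1, BCL2L2, MCL1, BCL2L11 and BIRC5) and 2377 of all genes (18.3%) did. Without the block, adjusted calls numbered 12 over all genes in DESeq2 and 0 in limma, with no member among them. With the block, 1 of the 10 passed in edgeR, against 0.849% of all genes in either direction and 0.123% in the upward direction. The split of the calls depended on the scaling, with 16 higher and 94 lower on TMM and 83 higher (0.640% of all genes) and 109 lower on library totals, and BCL2L11 passed on both. Groups that did not overlap in CPM were found for 2 of the 10 with higher values (BCL2L2 and BCL2L11) and 2 with lower values (BAD and BIRC5), against 4.08% and 5.12% of all genes. In FPKM BAD overlapped and BCL2L1 did not, so the genes with lower values depended on the scaling. An exact permutation test of 3 libraries against 3 cannot give a two-sided p below 0.1. Higher CPM in all 3 pairs was seen for 3 of the 10 (BCL2L2, MCL1 and BCL2L11) and lower CPM for 3 (BCL2L1, BAD and BIRC5), against 19.9% and 21.1% of all genes. In FPKM BAD was slightly higher in pair 1. The median log2 fold change of the 10 genes was 0.01 without the block, beside -0.002 for all genes tested.

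The balance between members was read from FPKM within each library. The 4 anti-apoptotic genes summed to 158, 153 and 142 FPKM in shNC replicates 1 to 3 and to 141, 151 and 143 FPKM in PLEK2 shRNA replicates 1 to 3, so their total overlapped between groups. BCL2L1 made up 54.4%, 57.4% and 55.7% of that sum in shNC and 41.7%, 52.2% and 51.1% with PLEK2 shRNA. MCL1 made up 39.2%, 35.8% and 37.7% in shNC and 49.7%, 40.7% and 40.7% with PLEK2 shRNA. The share of BCL2L1 was thus lower and that of MCL1 higher in every PLEK2 shRNA library than in any shNC library, with replicate 1 the most shifted. The FPKM ratio of MCL1 to BCL2L1 was 0.720, 0.624 and 0.677 in shNC and 1.19, 0.780 and 0.796 with PLEK2 shRNA. For BCL2L11 to BCL2L1 it was 0.212, 0.216 and 0.221 in shNC and 0.400, 0.279 and 0.297 with PLEK2 shRNA. Neither ratio overlapped between groups, with or without replicate 1. Within the 4 BH3-only genes, BCL2L11 took 20.03%, 19.7% and 17.4% of the summed FPKM in shNC and 22.7%, 22.8% and 22.7% with PLEK2 shRNA. These shares and ratios were formed after the levels were seen and carry no test.

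Other genes of the pathway were read from 7 lists with 64 genes in the table, of which 58 were tested. With edgeR, 0 of the 58 had an adjusted p under 0.05 without the block and 0 with it, against 0% and 0.849% of all genes. At an unadjusted p under 0.05, 1 of the 58 passed without the block and 11 with it. The same held for 3.09% of all genes without the block and 18.3% with it, so the lists lay near the background.

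Of the other BCL2 family genes, 11 of 14 were tested, with a median log2 fold change of 0.10 with the block. BAX, the partner effector of BAK1, was at 0.13 (edgeR with the block, adjusted p = 0.315), and BNIP3L, a mitophagy receptor, at 0.17 (edgeR with the block, adjusted p = 0.209). Neither passed, and BCL2A1, BCL2L10 and BCL2L14 were below the filter. Among other IAPs and their antagonists (7 of 9 tested, median 0.08), BIRC3, an IAP induced by NF-κB, was at 0.31 (edgeR with the block, adjusted p = 0.363; 0.11 without replicate 1), and DIABLO, a mitochondrial protein that displaces IAPs from caspases, at -0.10 (edgeR with the block, adjusted p = 0.376).

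The apoptosome and caspase genes were all tested (13 of 13), with a median of 0.11. APAF1, the scaffold of the apoptosome, was at 0.28 (edgeR with the block, adjusted p = 0.0936), and CASP8, the initiator caspase that cuts BID, at 0.23 (edgeR with the block, adjusted p = 0.152). Of the mitochondrial partners of BAK and BCL2 proteins (9 of 9 tested, median 0.04), VDAC1, the main channel of the outer membrane, was at -0.31 (edgeR with the block, adjusted p = 0.0922), and AMBRA1, an autophagy regulator that binds BCL2, at 0.13 (edgeR with the block, adjusted p = 0.304). None of these 4 genes passed with all libraries. VDAC1 rested on replicate 1, with log2 ratios within pairs of -0.64, -0.12 and -0.17, and was -0.14 without it (edgeR with the block, adjusted p = 0.113). It passed without replicate 3 (-0.37, edgeR with the block, adjusted p = 0.00273), and APAF1 passed without replicate 1 (0.34, edgeR with the block, adjusted p = 0.0234).

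Genes for the turnover of MCL1 and BH3 proteins (6 tested of 7 in the table) had a median of 0.09. USP9X, a deubiquitinase of MCL1, was at 0.11 and FEM1B, a substrate receptor of a ubiquitin ligase, at 0.12 (edgeR with the block, adjusted p = 0.326 and 0.355). The 3 partners of survivin in the chromosomal passenger complex had a median of -0.16 with the block, beside -0.13 for BIRC5. AURKB, its kinase, was at -0.16 and INCENP, its scaffold, at -0.18 (edgeR with the block, adjusted p = 0.171 and 0.228), while CDCA8, known as borealin, was at 0.0009. Without replicate 1 these values were -0.13, -0.06 and 0.15, and INCENP passed only without replicate 3 (-0.27, edgeR with the block, adjusted p = 0.0403). The regulators of BH3 gene transcription and survival kinases (9 of 9 tested) had a median of -0.07. AKT2, a kinase that acts on BAD and on FOXO factors, was at -0.18 and PIM1, a kinase that acts on BAD, at -0.24 (edgeR with the block, adjusted p = 0.104 and 0.152). Without replicate 1 AKT2 and PIM1 were at -0.18 and -0.12, and BNIP3L and FEM1B at 0.09 and 0.05. With all libraries FOXO1, FOXO3 and AKT1 of the same list were at 0.06, -0.04 and -0.07 (edgeR with the block, adjusted p = 0.785, 0.785 and 0.506).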

How the data were processed

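Samples were grouped by treatment as given in the labels, and replicate numbers were taken from the sample titles. The authors deposited an estimated count per gene and library, without normalization, and FPKM values whose unit was inferred from their scaling. The submitters' processing notes name HISAT2 2.0.4, Bowtie2 2.2.5, RSEM 1.2.12 and DESeq2 1.4.5, and the build GRCm38.p6, which is a mouse build although the gene symbols are human. The build behind the counts is therefore uncertain, and coordinates (GENCODE 44, GRCh38) describe the genes and not the counting. Deposited group means were not used.

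Counts were rounded to whole numbers, filtered (filterByExpr), scaled by TMM and compared with the quasi-likelihood test of edgeR 4.0.16, with Benjamini-Hochberg adjustment over 12959 genes. R 4.3.3, limma 3.58.1, DESeq2 1.42.0, Python 3.11.15, numpy 2.4.6, pandas 2.3.3, scipy 1.17.1 and matplotlib 3.10.9 were also used. The fits were tested on simulated data. Deviations from the group means correlated at 0.554 to 0.736 between libraries with the same number and at -0.629 to 0.358 between others (10161 genes whose mean log2 CPM exceeded 3). The negative values all involved replicate 1. Between replicates 2 and 3 the separation was smaller, at 0.558 and 0.554 with the same number and 0.358 and 0.355 with different numbers. The pairing rests on the common numbering and on this check, which used the same values as the fits, as no shared day is given in the labels. Values with a block for the replicate number therefore stand beside those without one. Library totals lay between 14377532 and 15602732, and intervals of fitted values include the spread between libraries.

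Named were the 10 genes, PLEK2, the genes that share exons with them, the 2 genes of each list with the lowest unadjusted p with the block where none passed, and the 3 genes most like BIRC5 and MCL1. Genes singled out beyond this were chosen after their values were seen. The members and lists were chosen with earlier results of these data known. Alternatives were other normalizations, filters on low counts, DESeq2, limma-trend on log2(FPKM + 1), the block, leaving out libraries or pairs, and the sum of BCL2L2 with its readthrough gene. DESeq2's size factors with the block, and the summed BCL2L2 with the block, were added after seeing the data, as were the values of list genes and epithelial markers without replicate 1.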

Additional observations from a re-analysis of the deposited data

How the results depend on the processing

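The number of genes with an adjusted p under 0.05, which was 0 in edgeR without the block, was 12 with DESeq2, 110 with the replicate block, 74 with DESeq2 and the block, 192 with library totals and the block, 85 with DESeq2's size factors and the block, and 20 with limma-trend and the block. It was 0 or 1 with single libraries left out, and 528, 18 and 297 with the block and without replicate 1, 2 or 3 in both groups. Of the 10 genes, 1 (BCL2L11) passed with the block in edgeR, with TMM, library totals or DESeq2's size factors, and in DESeq2, and 1, 0 and 2 passed with the block and without replicate 1, 2 or 3. The adjusted p of BCL2L11 in DESeq2 with the block (0.0436) was taken over fewer genes than in edgeR. With all 6 libraries the block changed no other call of the 10 genes. Without replicate 3, BCL2L1 passed beside BCL2L11 (edgeR with the block, adjusted p = 0.00105 and 0.0354). Of the 58 genes of the lists, 2 (APAF1 and BIRC6), 0 and 2 (VDAC1 and INCENP) passed in the same 3 fits. Adjusted p for BCL2L11 ranged from 0.0103 to 0.9999 over 20 alternatives, and its log2 fold change from 0.24 to 0.31. PLEK2 was at -1.532 with DESeq2, -1.572 with the block, -1.542 with library totals and the block, -1.564 with DESeq2's size factors and the block, and -1.527 with limma-trend and the block. It lay between -1.740 and -1.261 with single libraries left out, and was -1.205, -1.779 and -1.744 with the block and without replicate 1, 2 or 3.

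The sign of BID, which was -0.003, turned to 0.00566 on DESeq2's size factors, 0.0284 on library totals, 0.00709 with all genes of at least 1 count, 0.00694 with at least 10 counts in every library, 0.00583 in DESeq2, 0.00650 in DESeq2 with the block, 0.0299 on library totals with the block, 0.00678 on DESeq2's size factors with the block, and 0.0300 in limma-trend with and without the block. It lay between -0.0381 and 0.0392 with single libraries left out, and was 0.0319 and 0.0635 with the block and without replicate 2 or 3. BCL2 turned to 0.00429 on library totals, lay between -0.271 and 0.120 with single libraries left out, and was 0.0876 and 0.143 with the block and without replicate 1 or 2. BIK lay between -0.0519 and 0.157 with single libraries left out, and was -0.0815 and -0.0306 with the block and without replicate 1 or 2. The cause was not tested. The order of the 10 genes was the same with TPM. Library totals in place of TMM moved the all-gene median log2 fold change to 0.03. DESeq2 with the block gave no adjusted p for 6 of the 10 genes and for PLEK2, which its filter on mean counts left out of the adjustment. With 3 libraries a group and between 30 and 48 counts of BCL2 in a library, its change was the least well measured of the 10.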
